A study of Drosophila melanogaster with 3 samples.

Results

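The genes of the cytosolic ribosomal proteins were taken as the protein-coding genes of the Release 6 annotation whose symbols consist of RpL, RpS or RpLP and a number, with or without a closing letter. The rule found 85 of 13968 protein-coding genes. Of these, 48 encode proteins of the large subunit, among them the stalk proteins RpLP0, RpLP1 and RpLP2, and 37 encode proteins of the small subunit. The values came from chromatin immunoprecipitation sequencing of su(Hw) in whole Drosophila melanogaster embryos of both sexes, collected from 0 to 24 hours. The line was transgenic and stably expressed su(Hw) with green fluorescent protein at its C terminus. The antibody was directed against the tag, although the antibody field names su(Hw). The series holds 3 biological replicates in a single group and no contrast between conditions. The labels used here do not say whether the native su(Hw) gene was intact in the line. Since whole embryos were used, sites occupied in a few cell types and sites occupied weakly in all cells cannot be told apart. The labelled tissue could not be checked against marker genes, because peak lists hold no expression values.

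Ribosomal proteins are made in large and matched amounts in every growing cell, and in the fly the loss of 1 copy of many of their genes gives the Minute phenotype of slow growth and thin bristles. Their promoters in Drosophila commonly start transcription at a run of pyrimidines called the TCT initiator, work with the TBP-related factor Trf2, and are bound by promoter factors such as DREF and M1BP. The zinc finger protein su(Hw) binds a long consensus with the core TGCATA, is best known for the insulator of the gypsy element, and acts there with other chromatin proteins such as CP190.

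The sequences under the strongest sites are given first, because the su(Hw) consensus marked a few of them and was absent from most of the others. The following windows of 30 bases, written 5′ to 3′ on the strand of the match, hold the consensus in capitals with 9 bases on each side. The first 3 matched it exactly and the last 2 with 1 mismatch. Each match lay within 100 bp of the strongest summit of the named gene, where a summit is the position of highest signal in a peak. The RpS21 window lies in the annotated 5′ UTR of its divergent neighbour CG3104 and the RpL28 window in an annotated 3′ UTR of RpL28 itself. Those of RpS15Aa, RpLP0 and RpL34b are intergenic.
RpS21 (chr2L:2855699-2855728, minus strand): ggaaaattcTATTGCATATTTaggggcgca
RpS15Aa (chrX:13334950-13334979, minus strand): ttaaaaatcCATTGCATACTTtgtggctca
RpL28 (chr3L:3221043-3221072, minus strand): gcgaccaagTACTGCATACTTtggggcggt
RpLP0 (chr3L:22078366-22078395, plus strand): taataaagaCATTGCATAATTtcaggcgcc
RpL34b (chr3R:9401278-9401307, plus strand): actttcgagCACTGCAGACCTtgccagatt

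Most other sites lay at starts of transcription. The next windows run from 100 bases before to 20 bases after an annotated start, on the strand of the gene, and were chosen to show the elements that recurred there. Capitals mark the DREF element TATCGATA, the M1BP element GGTCACAC, and CTTT where its C lies within 5 bases of an annotated start, as in a TCT initiator. RpL40 is shown as a gene without a summit.
RpS25 (chr3R:11216268-11216387, minus strand): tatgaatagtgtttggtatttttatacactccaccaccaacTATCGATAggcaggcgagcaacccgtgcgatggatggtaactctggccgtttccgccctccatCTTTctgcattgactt
RpL27 (chr3R:25685032-25685151, minus strand): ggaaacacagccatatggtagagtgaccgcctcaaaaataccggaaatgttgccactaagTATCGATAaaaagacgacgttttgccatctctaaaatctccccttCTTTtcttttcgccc
RpS6 (chrX:7901312-7901431, minus strand): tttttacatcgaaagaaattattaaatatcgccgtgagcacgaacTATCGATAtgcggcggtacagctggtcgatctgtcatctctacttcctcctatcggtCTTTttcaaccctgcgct
RpLP1 (chr2L:419852-419971, plus strand): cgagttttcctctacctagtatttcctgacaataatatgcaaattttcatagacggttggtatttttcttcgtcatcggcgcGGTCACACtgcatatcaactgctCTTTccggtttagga
RpS9 (chr3L:9511512-9511631, minus strand): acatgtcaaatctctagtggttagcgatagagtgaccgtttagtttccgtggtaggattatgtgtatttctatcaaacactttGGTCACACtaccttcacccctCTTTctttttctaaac
RpL14 (chr3L:8600906-8601025, plus strand): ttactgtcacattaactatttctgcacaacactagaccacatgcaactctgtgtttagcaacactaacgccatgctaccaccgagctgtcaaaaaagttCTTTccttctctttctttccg
RpL23A (chr3L:1668635-1668754, minus strand): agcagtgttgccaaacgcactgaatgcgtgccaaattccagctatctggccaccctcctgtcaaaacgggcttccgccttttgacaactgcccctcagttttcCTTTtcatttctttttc
RpL40 (chr2L:4227599-4227718, plus strand): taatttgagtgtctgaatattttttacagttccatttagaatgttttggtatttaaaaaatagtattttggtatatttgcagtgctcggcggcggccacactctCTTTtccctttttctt
In RpS25, RpL27 and RpS6 the DREF element began 59, 40 and 55 bases before the start. In RpLP1 and RpS9 the M1BP element began 18 and 17 bases before it. The elements of RpS6 and RpS9 did not lie wholly within 100 bp of a thresholded summit. The nearest summits of these genes lay 283 and 116 bp upstream of the start, outside the printed windows. RpL14, RpL23A and RpL40 had neither element in this window, and all 8 windows held CTTT at the start.

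A thresholded su(Hw) summit lay in the body of the gene or within 1 kb of it for 69 of the 85 genes (81.2%, exact 95% interval 71.2 to 88.8), against 37.1% of all protein-coding genes. In the promoter window, from 1000 bp upstream to 100 bp downstream of an annotated start of the same gene, a summit lay for 68 (80.0%), against 26.4% of all protein-coding genes. Intervals are Clopper-Pearson intervals that cover counting error only, genes are not independent of each other, and no test was made over the list. Ribosomal protein genes are short, with a median of 1333 bp against 2164 bp for all. Of the other genes no longer than the longest of them, 4677 bp, 29.4% had a summit.

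The replicates gave the same share when each was taken by itself. Among the strongest 6127 peaks of a replicate, which is as many as the thresholded list holds, 70, 70 and 69 ribosomal protein genes had a summit in replicates 1, 2 and 3 (82.0% ± 0.676, SD, n = 3). The share of all protein-coding genes was 37.1% ± 0.655 (n = 3). In the promoter window the share was 80.0% ± 1.18 for ribosomal protein genes and 26.0% ± 0.621 for all genes. The values of the genes studied lay above those of all genes in each replicate, with no overlap. Since the replicates share their genes, this spread says nothing of the spread between genes.

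The shares of the subunits were close to each other. A summit lay at 39 of 48 large subunit genes (81.2%, 67.4 to 91.0) and at 30 of 37 small subunit genes (81.1%, 64.8 to 92.0). In the promoter window the counts were 39 and 29. In the replicates, 38, 40 and 38 large subunit genes and 32, 30 and 31 small subunit genes had a summit. The stalk proteins, which recruit translation factors to the ribosome, all had a promoter summit.

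**Figure D1:**
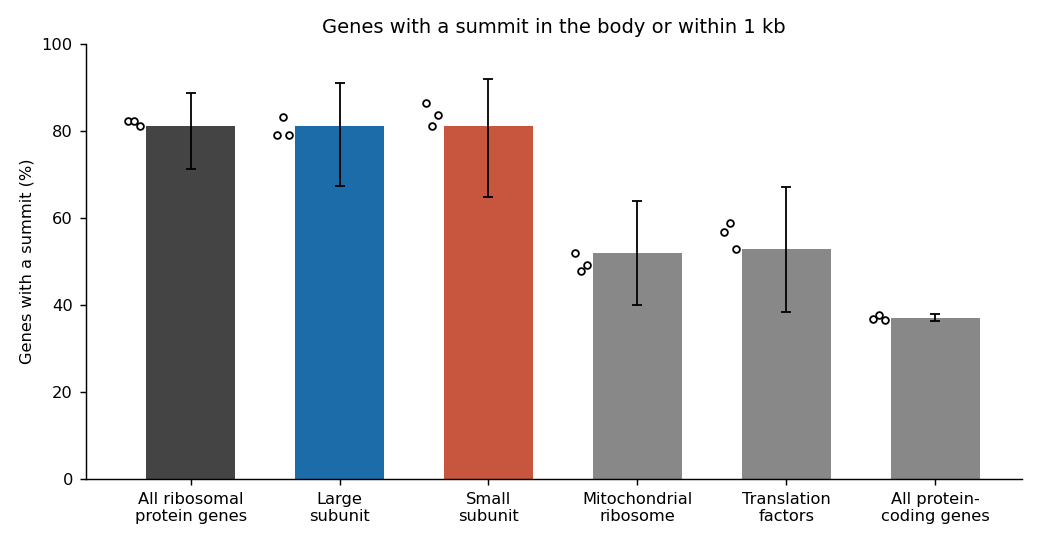
Share of genes with a thresholded su(Hw) summit in the body or within 1 kb (percent, bars) with exact 95% binomial intervals; open circles are the shares in the strongest 6127 peaks of each of the 3 replicates. Large and small subunit genes stand at 81.2% and 81.1%, mitochondrial ribosomal protein genes at 52.1%, translation factor genes at 52.9% and all protein-coding genes at 37.1%.

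Other genes of the translation machinery were counted in the same way, as a description without a test. Of 73 genes of mitochondrial ribosomal proteins, which serve the ribosome of that organelle, 38 had a summit (52.1%, 40.04 to 63.9). In the replicates 38, 35 and 36 of them did. Of 51 genes of initiation and elongation factors, 27 had one (52.9%, 38.5 to 67.1), and 29, 30 and 27 did in the replicates. Among ribosomal protein genes whose symbols the rule leaves out, sta, a small subunit protein gene, and RpL37-1 had summits, with ranks 3062 and 1199, while RpL37-2 had none. Of the 17 genes listed for their part in the transcription of ribosomal protein genes or in making ribosomes, 8 had a summit. That share (47.1%, 23.0 to 72.2) has an interval that includes the 37.1% of all protein-coding genes. Those 8 included Dref, M1BP, BEAF-32 and Trf2, and those without one included Myc and Fib.

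The summits sat close to the start of transcription. The nearest summit lay at a median of 49 bp upstream of the start, a signed distance of -49 bp with quartiles at -83 and -17 bp. The median over other genes with a summit was -83 bp, with quartiles at -195 and 630 bp. In the replicate lists the median for ribosomal protein genes was -55.5, -50.5 and -37 bp. The nearest summit lay upstream for 58 genes, at the start itself for 1 and downstream for 10. For 62 of the 69 (89.9%) it lay between 150 bp upstream and 50 bp downstream, against 35.0% of the other genes with a summit and 41.0% of those no longer than the longest ribosomal protein gene. For mitochondrial ribosomal protein genes the share was 63.2%, with a median of -100.5 bp, and for translation factor genes 63.0%, with a median of -11 bp, nearer to the start. Among the 7 exceptions were RpL36A at -214 bp, RpL6 at -221 bp, RpS6 at -283 bp, RpS10a at -859 bp and RpS15Aa at 2653 bp.

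**Figure D2:**
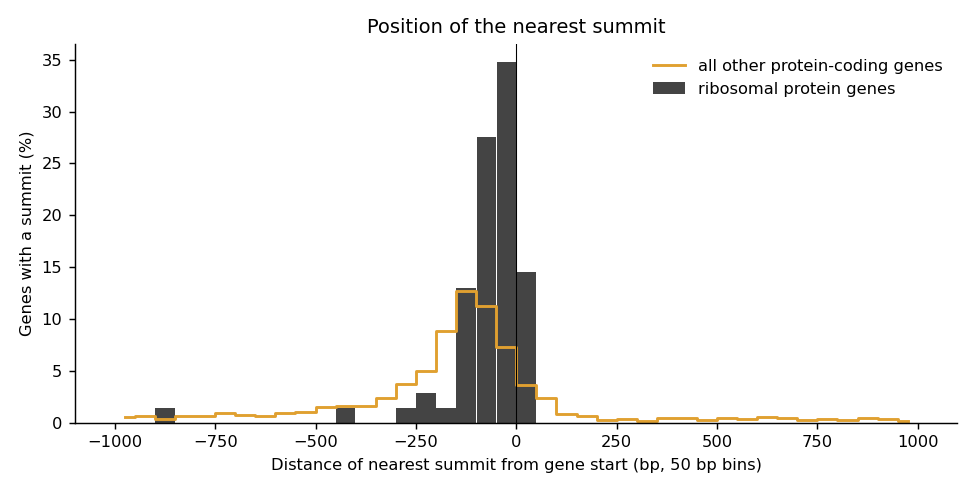
Signed distance of the nearest thresholded summit from the gene start in bins of 50 bp (x axis, 1 kb either side; summits farther away are not drawn) against the percent of genes with a summit (y axis), for ribosomal protein genes (bars) and all other protein-coding genes (line). The bars are highest just upstream of the start, where the median is -49 bp, and the line is highest farther upstream, with a median of -83 bp.

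Many of these starts face another gene. A start of another gene lay within 1 kb in the divergent direction for 52 of the 85 genes (61.2%), against 36.0% of other genes. The share was 79.5% of mitochondrial ribosomal protein genes and 49.0% of translation factor genes. A summit was found at 44 of these 52 (84.6%) and at 25 of the 33 without such a neighbour (75.8%). For other genes with a divergent start the share was 52.6%. Where a gene had 1 promoter summit and a divergent neighbour, which held for 30 genes, the summit was nearer to the start of the ribosomal protein gene in 26. The median distance was 50 bp to the ribosomal protein start and 278.5 bp to the neighbour. The same was not counted for other genes, so this placement is not shown to be particular to ribosomal protein genes. The 4 exceptions included RpL41 beside NaCP60E and RpS6 beside bys. The summit of RpL13 lay 22 bp from its start and 62 bp from that of Dref, which encodes the factor that binds TATCGATA. Such a summit cannot be given to one of the 2 genes from its position alone.

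**Figure D3:**
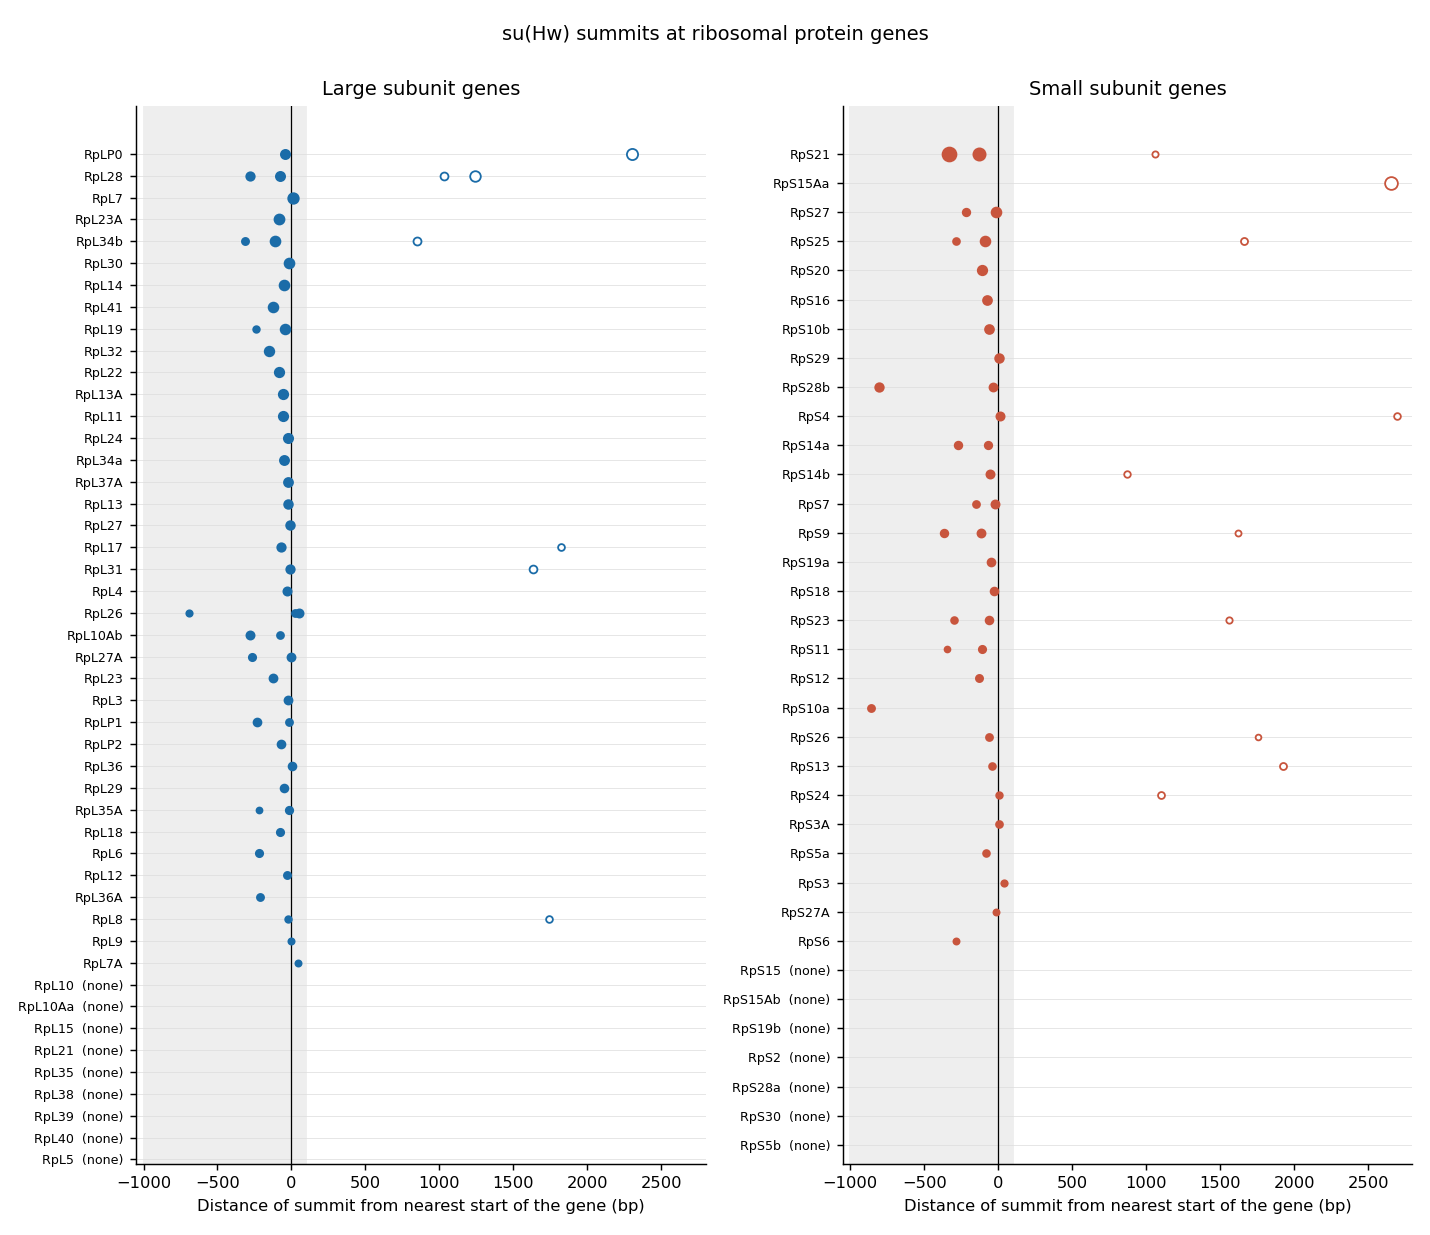
Position of thresholded su(Hw) summits at ribosomal protein genes, as distance from the nearest annotated start (bp, x axis), for the large and small subunit genes, in order of their strongest summit; a few genes are not drawn. Larger circles have a higher rank by signal; filled circles lie in the promoter window of the gene (grey, 1000 bp upstream to 100 bp downstream), open circles outside it. Most genes have a filled circle just left of 0; RpLP0, RpL28 and RpS15Aa have their largest circle to the right of it, and genes marked none have no summit.

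The signal of the authors' peak caller, whose scale the sources used here do not define, was used to rank peaks from 1, the strongest, to 6127. The 103 distinct summits at ribosomal protein genes had a median signal of 456, with a range of 239 to 7598, against 404.5 over all 6127. The strongest summit per gene had a median rank of 2246, close to the 2571 of other genes with a summit. Of the 69 genes, 43 had 1 summit, 18 had 2, 7 had 3 and RpL28 had 4.

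The medians of rank lay apart between the subunits. The median rank of the strongest summit was 1939 for large and 2610 for small subunit genes. In replicates 1, 2 and 3 the median was 1856, 1906 and 1828 for the large subunit, and 2859, 2706 and 2675 for the small. The large subunit had the stronger median in each replicate, and the replicate values did not overlap. The median over all protein-coding genes with a summit was 2516, 2638 and 2587, between those of the subunits in each replicate. With 3 replicates an exact paired permutation test cannot go below p = 0.25, and the difference was not tested over genes. Of the 23 genes whose strongest summit was among the strongest 1531 of the list, 17 belonged to the large subunit and 6 to the small. The 2 strongest summits of all were nevertheless at small subunit genes.

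RpS21, a protein of the small subunit, had the strongest site. Its peak, at chr2L:2855123-2856332, ranked 52 in the pooled list with a signal of 7598, and 55, 58 and 48 in the replicates. The summit lay 333 bp upstream, in a promoter window shared with CG3104, and held the first exact consensus printed above. Another summit of the same peak, 131 bp upstream, ranked 195. Its replicate ranks were 55, 58 and 190, because a replicate peak within 200 bp can match both summits. A last RpS21 summit, 141 bp past the end of the gene, ranked 5110 and had no peak within 200 bp in replicate 1.

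RpS15Aa, also of the small subunit, was next and was the only gene with a summit but none in its own promoter window. Its peak, at chrX:13334591-13335304, ranked 127 with a signal of 5171, and 130, 120 and 129 in the replicates. The summit lay 652 bp past the end of the gene, in no promoter window, and held an exact consensus. The start of RpS15Aa carries TATCGATA 75 bases upstream and CTTT, but no thresholded summit lay there.

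RpLP0, which anchors the stalk on the large subunit, had its strongest summit 907 bp past the end of the gene, with rank 404 and a signal of 2239. The replicates ranked it 442, 384 and 420. It held the consensus with 1 mismatch. A weaker summit, of rank 1322, lay 43 bp upstream of its start. In RpL28 the strongest summit lay inside the gene, 1243 bp from the start, with rank 574 and ranks of 627, 600 and 547 in the replicates. It held an exact consensus. Its promoter summits, which lie in that of the initiation factor gene eIF1 too, ranked 1321 at -78 bp and 1929 at -277 bp, and the fourth summit, inside the gene, ranked 2519.

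The strongest summits from RpL7 down to rank 1056 all lay near starts. RpL7 had rank 601, with 574, 623 and 635 in the replicates, at 13 bp downstream of its start and 43 bp from that of Ripalpha. RpL23A had rank 840 at -82 bp, with 938, 821 and 837 in the replicates, in no other promoter window. RpL34b had rank 900 at -109 bp, with 893, 1090 and 875, and carried the consensus with 1 mismatch. These 3 large subunit genes thus kept similar ranks in each replicate, the widest being those of RpL34b. RpL30 (rank 903, -16 bp; 982, 941 and 896 in the replicates) and RpL14 (920, -48 bp; 993, 867 and 970) followed. RpS27 (925, -16 bp; 785, 955 and 1081) and RpS25 (941, -89 bp; 964, 1017 and 953) were the small subunit genes of this range. RpL14 shares its window with Nelf-E, which encodes a subunit of a factor that pauses RNA polymerase II, and RpS27 shares its window with Nup37, a nuclear pore gene. The remaining genes described here from the strongest 15 belonged to the large subunit. RpL41, which encodes a very short peptide, had rank 960 (1026, 810 and 1048 in the replicates) and RpL19 had 988 (849, 900 and 1200). RpL32, often used as a reference gene in expression assays, had rank 1056 (920, 1078 and 1124).

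**Figure D4:**
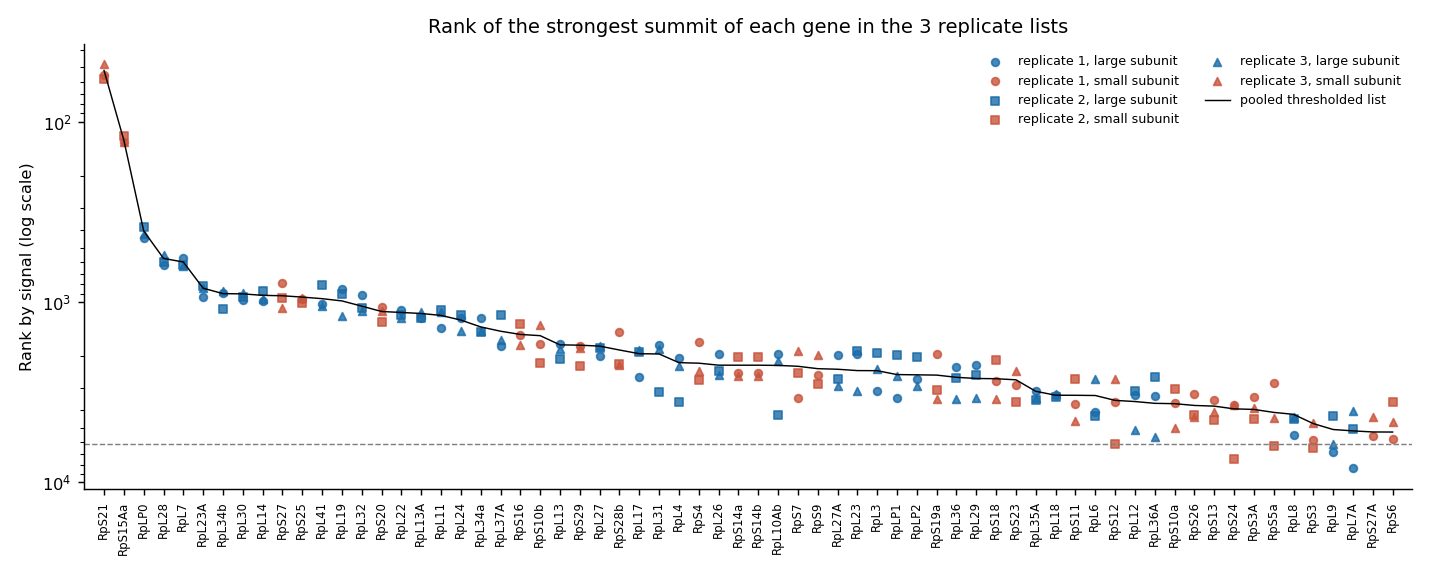
Rank by signal of the strongest summit of ribosomal protein genes with a summit, a few of them not drawn (log scale, strongest at the top) in the pooled thresholded list (line) and in replicates 1 (circles), 2 (squares) and 3 (triangles); blue is the large and red the small subunit, and the dashed line marks rank 6127. Ranks of the replicates stay close to the line for the strong genes and spread out for the weak ones, such as RpL7A with 8402 in replicate 1.

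Genes with 3 or more summits besides RpL28 and RpS21 were RpL26, RpL34b, RpS14a, RpS23, RpS25 and RpS9. In RpL26 the summits lay at 50, 23 and -692 bp, with ranks 2245, 3783 and 4856. RpL34b, RpS23, RpS25 and RpS9 each had 2 promoter summits and a further one past the end of the gene. Of the 103 summits, 86 lay in the promoter window of their own gene, and 57 of those also in that of another gene. The other 17 lay outside, 9 of them in the promoter window of another gene and 8 in none.

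Support in the replicates was counted as a top-ranked peak, one of the strongest 6127 of that replicate, within 200 bp. The thresholded list was itself made from these replicates. Of the 103 summits, 81 (78.6%, 69.5 to 86.1) had a top-ranked peak in all 3 replicates, against 68.1% of promoter summits of other genes. A further 19 had one in 2 replicates and 3 in 1. Large subunit summits were top-ranked in all 3 in 49 of 55 cases (89.1%) and small subunit summits in 32 of 48 (66.7%), a difference that was not tested. The small subunit summits without a top-ranked peak numbered 6, 9 and 2 in replicates 1, 2 and 3, and those of the large subunit 4, 2 and 2. The strongest summit of a gene was top-ranked in all 3 replicates for 60 of the 69 genes, 37 of 39 in the large and 23 of 30 in the small subunit. The same share for the strongest summits of other genes was not computed, and the shares above are over all summits of a set.

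For these strongest summits, all 7 small subunit genes that missed the count missed it in replicate 2. Among them were RpS12, RpS24, RpS3, RpS5a and RpS27A. None of the 30 small subunit genes missed it in replicate 1 or 3, and none of the 39 large subunit genes in replicate 2. The count asks for a peak within 200 bp of the strongest summit. Farther from it, replicate 2 had top-ranked peaks at RpS24 (4908, -42 bp from the start) and RpS12 (5631, -454 bp). It had them too at RpS5a (5609, -968 bp) and RpS27A (4243, 206 bp), but not at RpS3. The RpS24 summit at the start, of rank 4466, was top-ranked in all 3 replicates. Over all 6127 summits, not only the strongest of each gene, the shares without a top-ranked peak were 13.9%, 15.3% and 10.9% in replicates 1, 2 and 3. RpL7A, with a rank of 8402 in replicate 1, and RpL9, with 6798 in replicate 1 and 6166 in replicate 3, were the large subunit genes that missed the count. Farther from its summit RpL7A had a replicate 1 peak of rank 4567, 55 bp downstream of an annotated start.

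Several of the weakest genes with a summit were near the limit of the list. RpS6, the classic substrate of S6 kinase, ranked 5276, with 5733, 3589 and 4617. RpS27A, which is made as a fusion to ubiquitin, ranked 5271, with 5558 and 4338 in replicates 1 and 3 and no peak within 200 bp of the summit in replicate 2. That replicate had a peak of rank 4243 farther away, 206 bp downstream of the start. RpL7A ranked 5198 and RpL9, whose window holds Nup154 too, 5108. The weakest summit of all was the second one of RpS26, with rank 6055. Just outside the threshold lay RpS15 with rank 6752 in the unthresholded pooled list and RpL39 with 7067.

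No thresholded summit was found at 16 genes. For 10 of them the unthresholded pooled list, which holds 30000 peaks with weak ones included, had a weaker peak. These were RpS15 and RpL39, RpS2 with rank 7758, RpS30 with 7942, RpS19b with 9323, RpS5b with 10746, RpS15Ab with 16017, RpL35 with 16122, RpL40 with 21729 and RpS28a with 23611. RpS2 lies at the entry of the mRNA channel and RpS30 is made as a fusion to a ubiquitin-like protein, and their weaker peaks lay 5 and 30 bp upstream of the start. RpS2 ranked 5622, 12967 and 7127 in the replicates, and thus reached the top-ranked peaks in replicate 1. RpS30 had ranks of 5762 and 7139 in replicates 2 and 3 and no peak in replicate 1, so it was top-ranked in replicate 2. Top-ranked peaks also lay at RpS15 (4806 and 5928 in replicates 2 and 3) and RpL39 (5987 in replicate 2). RpS19b had one in replicate 1 (5355). RpS28a had one in replicate 2 (3282), a peak of rank 26868 in replicate 3 and none in replicate 1. The pooled list had no peak at RpL10, RpL10Aa, RpL15, RpL21, RpL38 and RpL5. RpL10, which joins the large subunit late in its making, had ranks of 13547 and 7298 in replicates 1 and 2. The other 5, among them RpL5, which carries the 5S rRNA with RpL11, were in no list.

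Apart from RpL10Aa, the genes without any pooled peak lay far from other summits. The nearest thresholded summit was 78570 bp away for RpL21, 110910 bp for RpL10, 154217 bp for RpL15, 363738 bp for RpL5 and 606559 bp for RpL38. RpL10Aa was nearer, at 6653 bp. How well reads can be placed in these regions was not tested. By chromosome arm, a summit lay at 13 of 17 genes on 2L, 14 of 18 on 2R, 12 of 14 on 3L, 17 of 22 on 3R and 12 of 13 on X. The 1 gene on chromosome 4, RpS3A, had one too, at 3 bp downstream of its start. On each arm the share of genes with a summit was above that of all its genes, which lay between 26.2% on chromosome 4 and 39.2% on 3L.

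Among the genes are 8 pairs of paralogs, which share a symbol up to the last letter. Both had a summit in RpL34, RpS10 and RpS14. In the other 5 pairs RpL10Ab, RpS15Aa, RpS19a, RpS28b and RpS5a had a summit and RpL10Aa, RpS15Ab, RpS19b, RpS28a and RpS5b did not. RpL34a ranked 1377 at -49 bp and RpL34b 900. RpS10b ranked 1540 at -64 bp and RpS10a 3672 at -859 bp. RpS5b, RpS10a, RpS19b and RpS28a are known in the fly mainly from the germ line, and of these only RpS10a had a summit. RpS19a ranked 2549 at -48 bp, RpS5a 4104 at -84 bp, RpS28b 1850 at -807 bp and RpL10Ab 2252 at -279 bp. RpS28b and RpL10Ab also had a weaker summit nearer to the start, of rank 2383 at -34 bp and 3831 at -80 bp. RpS14a and RpS14b are neighbours on X and shared the summit of rank 2246, which lay 56 bp upstream of RpS14b and ranked 2468, 2029 and 2568 in the replicates. They are near-identical copies, so reads between them could be split or misplaced. In all, 11 of the 16 paired genes and 58 of the 69 others had a summit.

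Features of the genes that the rule did not use were compared with other genes as a description. CTTT lay at an annotated start in 56 of the 85 genes (65.9%), against 7.71% of other genes. More annotated starts give more chances of a match. Among genes with 1 annotated start it was 52.4% of 42 ribosomal protein genes and 5.17% of other genes. A summit lay at 47 of the 56 with CTTT (83.9%) and at 22 of the 29 without (75.9%), and at 46.4% of the other genes with CTTT. Small nucleolar RNA genes, whose products guide the modification of rRNA, lay inside 28 of the 85 (32.9%), against 0.403% of other genes. Of these 28 host genes 26 had a summit (92.9%), against 43 of the 57 others (75.4%). Other genes that host a small nucleolar RNA had a summit in 39 of 56 cases (69.6%).

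The su(Hw) consensus was uncommon at these summits, as it was at promoter summits of other genes. It was found with at most 1 mismatch within 100 bp of 9 of the 103 summits (8.74%, 4.07 to 15.9), on either strand. The shares were 11.7% at promoter summits of other genes, which the interval includes, and 21.6% over all 6127 summits, which it does not. An exact match lay at 3 summits, the printed ones of RpS21, RpS15Aa and RpL28, or 2.91%. The share was 3.01% at promoter summits of other genes and 7.05% over all summits. Among the 86 summits in the own promoter window, 1 held an exact match (1.16%, 0.0294 to 6.31), that of RpS21. There 6.98% held the consensus with at most 1 mismatch. Of the 17 outside, 17.6% did. The printed RpLP1 window holds a match with 1 mismatch too, in letters that overlap its M1BP element. No match says only that these letters are not in this window.

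Elements of promoter factors were searched in the same windows, again as a description. TATCGATA lay within 100 bp of 21 of the 103 summits (20.4%, 13.1 to 29.5), against 7.31% of promoter summits of other genes. A pair of CGATA within 40 bp, as bound by the insulator protein BEAF-32, lay at 28.2% against 15.4%. TATCGATA reads CGATA on both strands, so that each match also counts as such a pair. It was present at 21 of the 29 summits with a pair, and at 221 of the 465 such promoter summits of other genes. The pair is thus no contrast separate from that of TATCGATA. GGTCACAC was found at 14 summits (13.6%, 7.64 to 21.8), against 4.83%. CACGTG, the site of Myc, lay at 6.80% against 2.55%, and TATAAA at 30.1% against 34.7%. The shares were close between subunits for TATCGATA, 21.8% in the large and 18.8% in the small, and for GGTCACAC, 14.5% and 12.5%. CACGTG lay at 6 of the 55 large and 1 of the 48 small subunit summits.

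**Figure D5:**
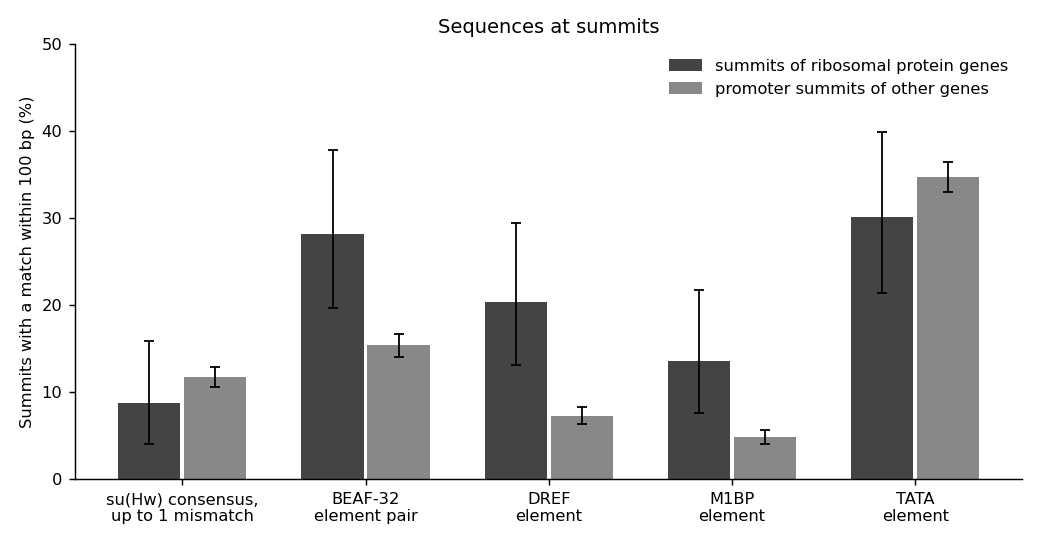
Percent of summits with a match within 100 bp on either strand (bars, with exact 95% binomial intervals), for the 103 summits of ribosomal protein genes and the 3024 promoter summits of other genes. The DREF element stands at 20.4% against 7.31% and the M1BP element at 13.6% against 4.83%. The su(Hw) consensus stands at 8.74%, with an interval of 4.07 to 15.9 that includes the 11.7% of other genes.

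The promoters themselves were searched whether or not a summit lay there. In the stretch from 250 bases before to 50 after the start, TATCGATA was found in 29.4% of ribosomal protein genes against 9.36% of all protein-coding genes, 27.5% of translation factor genes and 20.5% of mitochondrial ribosomal protein genes. GGTCACAC was found in 15.3% against 7.69% and a CGATA pair in 41.2% against 19.3%, while mitochondrial ribosomal protein genes had a CGATA pair in 39.7%. Each TATCGATA counts as a pair here too. It lay in 25 of the 35 ribosomal protein promoters with a pair and in 1307 of the 2702 of all genes. TATCGATA lay in 22 of the 69 promoters of genes with a summit and in 3 of the 16 without, and GGTCACAC in 12 and 1. The core TGCATA lay in 14 of the 69 and in none of the 16, against 15.4% of all promoters. CACGTG lay in 6 of the 48 large subunit promoters and in none of the 37 of the small subunit, where a count of 0 allows a share of up to 9.49% by the exact interval. With 16 genes without a summit, such counts are a description and show no difference between the groups.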

How the data were processed

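Chromatin immunoprecipitation sequencing of tagged su(Hw) was carried out in 3 biological replicates; fragments were 200 to 800 bp long, per the labels. The authors deposited peak lists in dm6, 1 per replicate and 1 pooled list, each of 30000 peaks, and 1 list of 6127 peaks thresholded by reproducibility between replicates. The lists in dm3 were not used. The signal of a peak and its −log10 q-value are the authors' deposited values; no source used here names the peak caller, the threshold, the read depth or the scale of the signal. The labels also name a control, which was not analysed here, so the peaks at these promoters, with or without a consensus, were not compared with a control. The −log10 q-value was at its maximum of 3.976 for 90 of the 103 summits studied, so peaks were ranked by signal within each list.

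Genes and transcript starts came from Ensembl release 115 on Release 6 of the genome, the build of dm6; sequences came from the RefSeq copy of Release 6. Positions are 1-based. Summits of different lists were taken as the same site up to 200 bp apart. Motifs were searched on both strands within 100 bp of summits and from 250 bases before to 50 after the start, and CTTT on the strand of the gene. The su(Hw) consensus has 12 positions. Members, lists, motifs and the rule for naming genes were chosen with earlier results of these data known. Genes were named if their strongest summit was among the 15 strongest or 5 weakest, if they had no summit, no promoter summit, 3 or more summits, a paralog or a summit shared with another member, or if their strongest summit lacked a top-ranked peak in 2 or more replicates; RpL13 with Dref, the exceptions counted in position, divergent starts and replicate support, and genes of other lists were named after their values were seen. A few of the genes under this rule are not reported here by name. There was no contrast, so shares, medians and exact 95% binomial intervals are given and no test was run. Functions were tested on simulated data. All computing was done in Python 3.11.15 (scipy 1.17.1, pandas 2.3.3, numpy 2.4.6 and matplotlib 3.10.9).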

Additional observations from a re-analysis of the deposited data

How the results depend on the processing

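The gene and promoter counts, subunit shares, median distance and rank, replicate support and consensus share were recomputed, each under the other settings that bear on it; the other values have no alternative. Of the recomputed values, 63 stayed within the tolerance set (1.5 times a count, 1 SD or the exact interval), 11 moved and 1 reversed. For the gene and promoter counts the tolerance is wide. Since 1.5 times either main count is above all 85 genes, no rise could leave it. Falls to 48 and 47 genes, given below, also stayed within it. With the gene body alone, 17 genes had a summit, 16.7% of the large and 24.3% of the small subunit, against 14.3% of all genes, and the median distance turned to 5 bp, since upstream summits then drop out by construction. With the stronger part of the list, 3063 peaks, 48 genes had a summit and 47 a promoter summit, 64.6% of large and 46.0% of small subunit genes had one, against 21.8% of all genes, and the median rank was 1636. In the unthresholded pooled list all small subunit genes (100%) had a peak, beside 65.6% of all genes. A flank of 5 kb gave a median rank of 2060. Support in all 3 replicates was 98.1% with whole replicate lists, close to the 97.2% of all 6127 summits. It was 68.0% with a matching distance of 100 bp. The consensus with at most 1 mismatch lay within 200 bp of 19.4% of summits. For the matching distance of 100 bp and the window of 200 bp, the shares over all summits were not computed.

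Asking for a top-ranked peak in the other replicates, without each replicate in turn, gave 61 to 67 genes with a summit and 59 to 65 with a promoter summit. The share was 77.1% to 79.2% for the large and 64.9% to 81.1% for the small subunit. That of the small subunit was highest without replicate 2, where it had to equal the main 81.1%. For their strongest summit, none of its 30 genes with a summit missed the count in replicate 1 or 3, and 7 missed it in replicate 2. The median rank was 2174 to 2246, the median distance -49 to -48 bp and the consensus share 10.0% to 10.8%. Read depth is unknown, so weak or missing peaks at the 16 genes without a summit show no absence of binding.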
